A study of Mus musculus with 6 samples.

Results

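DNA replication licensing, and the fork that follows it, was followed through 10 genes in intestinal epithelial cells (IECs) of the mouse colon after dextran sodium sulphate (DSS), a polymer that damages the epithelium and brings on colitis. The genes were Mcm2, Mcm3, Mcm4, Mcm5, Mcm6, Mcm7, Mcm10, Pcna, Gins1 and Cdc45. Although Mcm10, Pcna, Gins1 and Cdc45 act in S phase, all 10 are called licensing genes here. They were taken by gene symbol from a table of 55487 genes, in which each symbol had 1 row, and all 10 were among the 14650 genes with enough reads to be tested. RNA-seq libraries came from 3 samples of Nsd2 f/f mice, whose floxed Nsd2 alleles are intact, and from 3 samples of Nsd2 Vil-KO mice, which carry the same alleles together with Villin-Cre. The Villin promoter drives Cre in the intestinal epithelium, so Nsd2, a methyltransferase of lysine 36 on histone H3, is deleted there and not in other cells of the colon. The mice had a C57BL/6J background, and the methods give 2 months as the age at which colitis was induced, with 2% DSS in the drinking water for 5 days. All 6 samples were DSS treated, and the sources used here do not give the day on which cells were taken for RNA-seq or a sample from untreated mice. The f/f samples are titled WT in the labels although their genotype is the floxed one. Nothing states that each library came from a separate mouse, so the p-values measure the spread between these samples, which may be technical in part.

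Licensing makes a chromosome competent for replication. In G1 phase the origin recognition complex, with Cdc6 and Cdt1, loads the ring of MCM2-7 proteins onto DNA as an inactive double hexamer. In S phase Cdc45 and the GINS complex join each ring to form the active helicase, Mcm10 promotes its activation, and Pcna encircles the DNA as the sliding clamp that holds the polymerases. In the colon these genes are known for expression in the dividing stem and transit-amplifying cells of the lower crypt, and their RNA falls when cells leave the cycle and differentiate. Transcription of many of them rises before S phase through E2F factors, which bind short GC-rich motifs near start sites. In bulk RNA a lower level can come from fewer cells of a type or from less RNA per cell, which cannot be told apart.

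On the mouse genome GRCm38, Mcm2 lies at chr6:88883474-88898780 on the minus strand and Mcm3 at chr1:20802968-20820312 on the minus strand. Mcm4 lies at chr16:15623897-15637400 (minus), Mcm5 at chr8:75109569-75128439 (plus), Mcm6 at chr1:128331590-128359664 (minus) and Mcm7 at chr5:138164583-138172422 (minus). Cdc45 lies at chr16:18780447-18811987 (minus), Gins1 at chr2:150905400-150931280 (plus), Mcm10 at chr2:4989714-5012791 (minus) and Pcna at chr2:132249162-132253314 (minus). The 10 genes therefore lie on 6 chromosomes. Exons of Mcm7 overlap those of Ap4m1 by 321 bases and of Cops6 by 64 bases on the opposite strand, and exons of Cdc45 overlap those of Ufd1 by 209 bases. The sources used here do not give the use of strand in counting, so reads in these stretches cannot be assigned to one gene with certainty.

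RefSeq promoter windows from 250 bases before to 50 bases after the start (GRCm38.p6) were given for 8 of the 10 genes, all but Mcm4 and Gins1. They were searched on both strands for the E2F octamers TTTGGCGC, TTTCCCGC, TTTGCCGC and TTTCGCGC, and a site can match on both strands. An octamer was present for 4 of the 8 genes (Mcm3, Mcm5, Mcm6 and Mcm7), and in 744 of all 32851 windows, a share of 2.26%. The 8 genes had 9 windows, since Mcm7 had a second one, which held no octamer. The share over all windows therefore counts windows, not genes. The matched stretches are shown because these 4 genes encode subunits of one ring. Of the other ring subunits, Mcm2 held no octamer and Mcm4 had no window. The octamers are in capitals, and each stretch is written along its gene's strand.
Mcm3, chr1:20820275-20820304 (minus): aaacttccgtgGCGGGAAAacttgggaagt
Mcm3, chr1:20820263-20820292 (minus): cgggaaaacttgggaagtTTTGGCGCcaag
Mcm5, chr8:75109347-75109376 (plus): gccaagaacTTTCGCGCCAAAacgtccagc
Mcm6, chr1:128359795-128359824 (minus): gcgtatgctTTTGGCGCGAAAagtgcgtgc
Mcm6, chr1:128359734-128359763 (minus): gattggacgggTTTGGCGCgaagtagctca
Mcm7, chr5:138172030-138172059 (minus): aatttcgaaccGCGGGAAAcagggtgtcca
Mcm7, chr5:138171849-138171878 (minus): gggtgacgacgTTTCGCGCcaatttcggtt

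The Mcm3 stretches overlap, and their octamers lay 19 and 38 bases after the start. The Mcm5 and the first Mcm6 stretch lay 153 and 110 bases before the start, and each held a pair of octamers that overlap on opposite strands. The letters CCAAT, the core of the NF-Y motif, were found on one strand or the other in the windows of 8 of 8 genes and in 12289 of the 32851 windows (37.4%). These matches describe the sequence only.

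The libraries held between 15439123 and 20350539 counts, and 3 counts, taken as the floor, corresponded to between 0.146 and 0.242 CPM, the counts scaled to a common library size. This scaling used TMM factors, which also correct for the makeup of each library. Nsd2 itself had 47.9, 51.2 and 24.6 CPM in the f/f libraries 1, 2 and 3 in turn, and 24.2, 10.4 and 20.8 CPM in the Vil-KO libraries. Its log2 fold change of Vil-KO over f/f was -1.16 (SE 0.39, adjusted p = 0.992, edgeR's quasi-likelihood test), with f/f replicate 3 close to Vil-KO replicate 1. Nsd2 passed a fold change above 1.2 with an unadjusted p below 0.05, and its log2 fold change was -1.13 without the libraries of f/f replicate 3 and Vil-KO replicate 2. A pair of libraries stood apart from the other 4. Xist, which is transcribed from the inactive X chromosome of females, had 4296 counts in f/f replicate 3 and 3684 in Vil-KO replicate 2, against 1 to 5 in the others. The labels give no sex. The mitochondrial share of counts was 19.6% in f/f replicate 3, while elsewhere it ran from 5.51% to 9.13%. Each genotype thus had 1 library with Xist, and the results for the 10 genes are given with and without both. Epithelial markers, 7 genes among them Epcam and Vil1, had reads in every library and summed to between 10400 and 16400 CPM.

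None of the 10 licensing genes differed detectably between genotypes. Their log2 fold changes of Vil-KO over f/f lay between -0.17 (Gins1) and 0.098 (Mcm10), with 8 below 0 and 2 above, and a median of -0.046 against 0.0012 over all 14650 tested genes. The levels did differ widely between libraries of one genotype. All 10 genes had their lowest values in f/f replicate 3 and Vil-KO replicate 2, and the other 4 libraries lay close together.

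**Figure D1:**
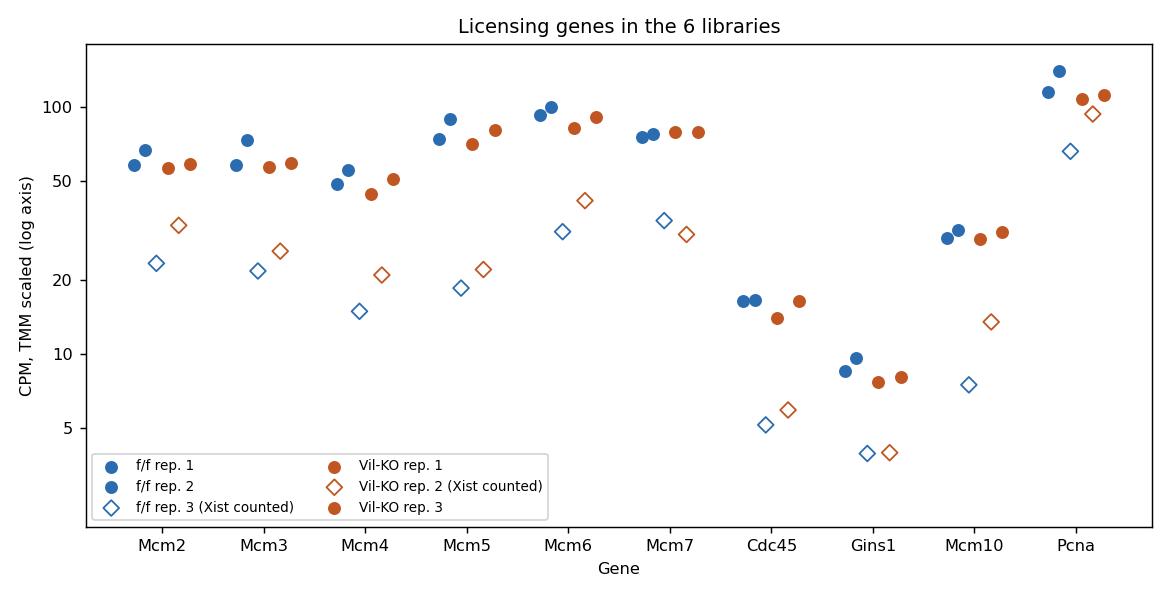
Level of the 10 genes in each library, in TMM-scaled CPM on a log axis, with f/f in blue and Vil-KO in orange and 1 point per library. Open diamonds mark the libraries with Xist, which are the lowest points of every gene, from 3.96 CPM for Gins1 in f/f replicate 3 to 93.7 CPM for Pcna in Vil-KO replicate 2.

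Mcm2, the subunit with a long tail that holds histones, had 58.0, 67.1 and 23.3 CPM in f/f replicates 1, 2 and 3, while the Vil-KO replicates had 56.4, 33.2 and 58.6 CPM in the same order. The genotype means of 49.5 ± 23.1 and 49.4 ± 14.0 CPM (SD, n = 3 each) were almost equal, and the values overlapped. Mcm3, the subunit through which Cdc6 recognises the ring, had 58.4, 73.7 and 21.7 CPM in f/f and 57.0, 26.1 and 59.4 CPM in Vil-KO. Again 1 library of each genotype was low and the groups overlapped. Mcm4, one of the subunits phosphorylated by the Dbf4-dependent kinase when origins fire, had 49.0, 55.4 and 14.9 CPM in f/f and 44.5, 20.9 and 51.0 CPM in Vil-KO. The log2 fold changes were -0.0041 for Mcm2 (SE 0.41, 95% interval -0.97 to 0.96), -0.11 for Mcm3 (SE 0.48, -1.25 to 1.03) and -0.039 for Mcm4 (SE 0.52, -1.26 to 1.18). These intervals reach about a doubling or more in either direction.

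Mcm5, which with Mcm2 forms the gate through which DNA enters, had 74.1, 89.8 and 18.5 CPM in f/f and 71.1, 22.0 and 80.5 CPM in Vil-KO. Its highest value was 4.85 times its lowest, the largest ratio of the 10 genes, and its genotypes overlapped, at 60.8 ± 37.5 and 57.9 ± 31.4 CPM (SD, n = 3 each). Mcm6, the subunit bound by Cdt1 during loading, had 92.7, 99.7 and 31.3 CPM in f/f and 82.4, 41.8 and 91.5 CPM in Vil-KO. Mcm7, whose locus also hosts the miRNAs Mir25 and Mir93, had 75.3, 77.7 and 34.7 CPM in f/f and 78.9, 30.5 and 79.0 CPM in Vil-KO. It was the only one of the 10 with its lowest value in Vil-KO replicate 2 rather than in f/f replicate 3. The log2 fold changes were -0.073 for Mcm5 (SE 0.64, -1.59 to 1.44), -0.054 for Mcm6 (SE 0.47, -1.16 to 1.06) and 0.0051 for Mcm7 (SE 0.44, -1.03 to 1.04).

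Cdc45, which joins the ring when an origin fires, had 16.4, 16.6 and 5.17 CPM in f/f and 14.0, 5.94 and 16.4 CPM in Vil-KO. Gins1, a subunit of the GINS complex, had 8.57, 9.63 and 3.96 CPM in f/f and 7.70, 3.99 and 8.07 CPM in Vil-KO. Both partners of the helicase were low in the same libraries as the ring itself. Their log2 fold changes were -0.078 (SE 0.53, -1.33 to 1.18) and -0.17 (SE 0.44, -1.21 to 0.87). Mcm10, the activator of the helicase, which despite its name is no subunit of the ring, had 29.4, 31.9 and 7.51 CPM in f/f and 29.1, 13.5 and 31.2 CPM in Vil-KO, with a log2 fold change of 0.098 (SE 0.55, -1.2 to 1.39). Pcna, the clamp, had 115, 140.0 and 66.2 CPM in f/f and 108, 93.7 and 112 CPM in Vil-KO. Its highest value was 2.11 times its lowest, the smallest such ratio of the 10 genes, with means of 107 ± 37.5 CPM in f/f and 105 ± 9.66 CPM in Vil-KO (SD, n = 3 each). Its log2 fold change was -0.035 (SE 0.28, -0.7 to 0.63). Pcna-ps2, a processed pseudogene of Pcna on another chromosome, had between 4.93 and 17.7 CPM, or 6.64% to 15.5% of the Pcna value in the same library, and how reads shared by both were counted is not given in the sources used here.

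In edgeR's quasi-likelihood test the adjusted p of the 10 genes ran from 0.996 to 0.999. The study's results give a fold change above 1.2 and a p below 0.05 as the criterion for screening, without saying whether that p is adjusted, and its methods name an adjusted p. The screening criterion was applied here with the unadjusted p, in either direction, and both counts are given. By it 0 of the 10 passed, while 1.65% of tested genes passed as higher in Vil-KO and 1.65% as lower (241 each). The count with an unadjusted p below 0.05 was also 0 of 10, in edgeR, in DESeq2 and in limma-voom. These methods share the same 6 libraries, so they are not separate checks. Of all 14650 tested genes, 482 passed the screening criterion in edgeR, 633 in DESeq2 and 1440 in limma-voom. The share of all tested genes at that p alone is not given here. At an adjusted p below 0.05 edgeR called 0 of the 10 and 0% of all tested genes, so in edgeR the adjusted threshold sets no gene apart. DESeq2 and limma-voom also called 0 of the 10, and their counts over all tested genes are not given here. Exact two-sided permutation tests of each gene gave p between 0.6 and 1, where 3 against 3 cannot go below 0.1. The genotypes did not overlap for 0 of the 10 genes, against 1451 tested genes (9.9%). The estimated differences were small beside the rest of the genome, with a median size of 0.063 against 0.23 on the log2 scale, and their errors were larger, with a median SE of 0.48 against 0.34.

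Without both libraries with Xist, the levels of all 10 genes were nearly the same in the remaining 2 f/f and 2 Vil-KO libraries. The highest of the 4 values was 1.05 to 1.30 times the lowest, where the median tested gene had 1.37. For Mcm7 the 4 libraries ran from 75.3 to 79.0 CPM. The log2 fold changes in the fit to these 4 libraries were -0.11 for Mcm2 (95% interval -0.40 to 0.17), -0.17 for Mcm3 (-0.50 to 0.16), -0.12 for Mcm4 (-0.42 to 0.18), -0.10 for Mcm5 (-0.42 to 0.21), -0.14 for Mcm6 (-0.40 to 0.13) and 0.057 for Mcm7 (-0.19 to 0.30). For the other genes they were -0.11 for Cdc45 (-0.49 to 0.28), -0.19 for Gins1 (-0.68 to 0.29), -0.012 for Mcm10 (-0.32 to 0.29) and -0.20 for Pcna (-0.51 to 0.10). Thus 9 of 10 lay slightly below 0, with a median of -0.11 against -0.0003 over all tested genes. Again 0 of the 10 passed the screening criterion and 0 had an unadjusted p below 0.05, in edgeR, where the lowest adjusted p was 0.581, while 1646 of 15030 tested genes passed it (11.0%). The median SE of the 10 genes was 0.13 against 0.18 for all tested genes, so that here their errors were the smaller ones. No interval of a ring subunit reached beyond -0.50 or 0.30. This fit has 2 libraries per genotype and was made because the 2 others stood apart.

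**Figure D2:**
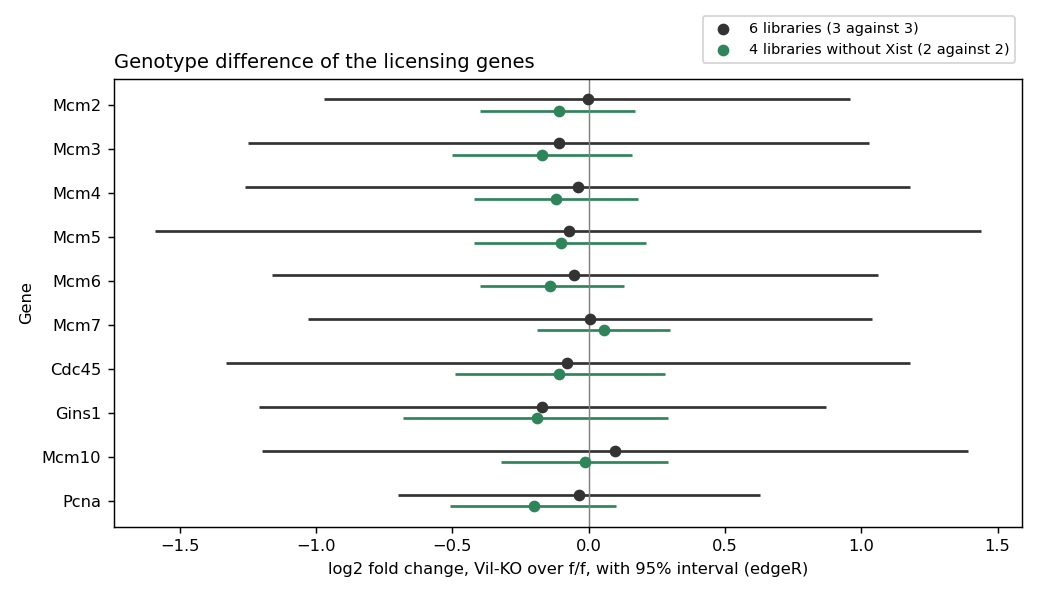
Log2 fold change of Vil-KO over f/f for each gene with its 95% interval from edgeR, for all 6 libraries (black) and for the 4 libraries without Xist (green). All intervals cross 0, and the widest runs from -1.59 to 1.44 with 6 libraries (Mcm5) and from -0.68 to 0.29 with 4 (Gins1).

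The pattern that the 10 genes share is across libraries, not across genotypes. Both libraries with Xist were the lowest 2 of the 6 for 10 of 10 genes, against 3056 tested genes (20.9%). In 7 of 10 genes both libraries were at least 2-fold below the mean of the others of their genotype, against 893 tested genes (6.1%). In f/f replicate 3 this held for 9 of 10 genes (14.4% of tested genes) and in Vil-KO replicate 2 for 7 of 10 (16.6%). The median departure on the log2 scale was -1.6 in f/f replicate 3 and -1.15 in Vil-KO replicate 2, while the median over all tested genes was -0.012 and -0.006. The smallest departure was that of Pcna in Vil-KO replicate 2, at -0.23.

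The genes did not fall to the same degree. Mcm5 in f/f replicate 3 was at 22.6% of the mean of f/f replicates 1 and 2, and Mcm10 was at 24.5%. Mcm4 was at 28.7% and Cdc45 at 31.3%, while Mcm7 was at 45.3% and Pcna at 52.0%. In Vil-KO replicate 2, Mcm5 was again the lowest, at 29.1% of the mean of Vil-KO replicates 1 and 3, and Pcna again the least changed, at 85.2%. The order between them differed, however, with Mcm7 second lowest at 38.6% and Mcm10 at 44.9%. Set against each other, Vil-KO replicate 2 was higher than f/f replicate 3 for 9 of 10 genes, by a median of 0.34 on the log2 scale, and lower for Mcm7, while 50.6% of all tested genes were higher. That comparison rests on 1 library of each genotype and has no replicate check.

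The unequal fall shifted the balance among the ring subunits, which are present in equal number in the protein complex. Of the reads counted for Mcm5 and Mcm2 together, Mcm5 had 56.1% in f/f replicate 1 (95% Wilson interval 54.2 to 58.0) and 57.2% in replicate 2, but 44.2% in replicate 3 (40.0 to 48.5). In Vil-KO it had 55.8% and 57.9% in replicates 1 and 3 and 39.9% in replicate 2 (36.9 to 42.9). The 2 libraries with Xist thus lay outside the intervals of the others in both genotypes, where the intervals cover counting error only. The gene pairs compared here were chosen with earlier results of these data known, and Mcm5 had fallen most in both libraries. The shares and ratios therefore describe the unequal fall and do not test it. The ratio of Mcm10 to Pcna counts was 0.256, 0.228 and 0.113 in f/f and 0.271, 0.144 and 0.278 in Vil-KO, and it too was lowest in the libraries with Xist. The ratio of Mcm7 to Mcm3 counts was 1.29, 1.05 and 1.59 in f/f and 1.38, 1.17 and 1.33 in Vil-KO. That ratio was highest in f/f replicate 3 and lowest in f/f replicate 2, so it did not follow the libraries with Xist. Compared per kilobase of exon, Mcm5 made up 20% and 21.2% of the summed level of the 6 subunits in f/f replicates 1 and 2 and 14.3% in replicate 3, and 20%, 14.2% and 21.0% in the Vil-KO libraries. Mcm2 moved the other way, from 8.77% to 9.10% in the 4 libraries without Xist to 10.3% and 12.3% in those with it. Mcm7 differed between the 2 libraries, at 24.1% in f/f replicate 3 and 17.7% in Vil-KO replicate 2, against 16.5% to 20% in the rest.

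**Figure D3:**
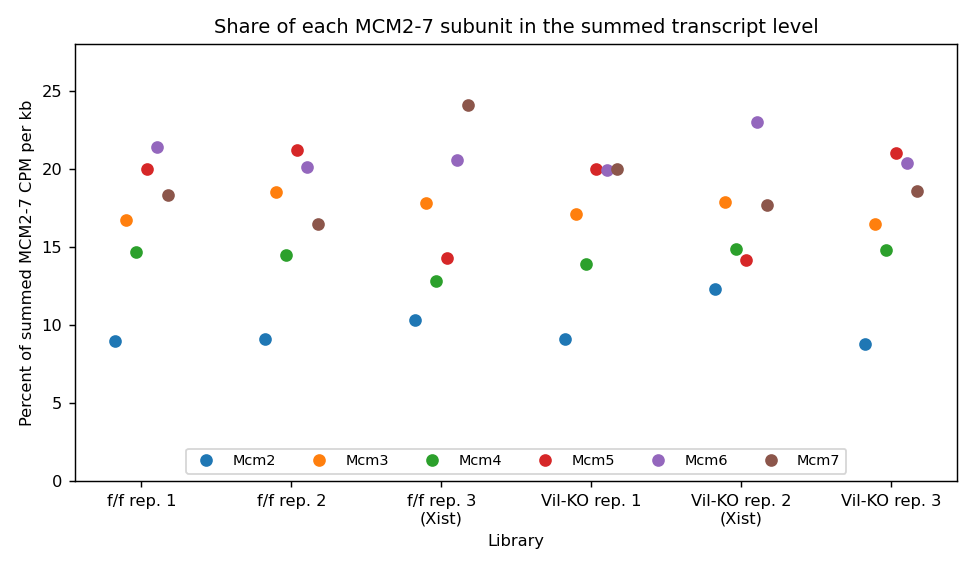
Share of each MCM2-7 subunit in the summed level of all 6, in percent of CPM per kilobase of exon, with 1 point per subunit and library. Mcm5 drops to 14.3% in f/f replicate 3 and 14.2% in Vil-KO replicate 2, the libraries with Xist.

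Per kilobase of exon, the mean over 6 libraries was highest for Pcna, at 44.1 CPM per kb. It was 44.6 ± 15.6 in f/f and 43.5 ± 4.02 in Vil-KO (SD, n = 3 each). The ring subunits followed, with Mcm6 at 15.7, Mcm5 at 14.9, Mcm7 at 14.2, Mcm3 at 13.2, Mcm4 at 10.9 and Mcm2 at 7.11 CPM per kb. Gins1 at 4.61, Cdc45 at 3.54 and Mcm10 at 3.09 CPM per kb were the lowest. Neighbours from Mcm6 to Mcm4, and from Gins1 to Mcm10, differed by less than the SD of either gene in either genotype. The steps from Pcna to Mcm6, from Mcm4 to Mcm2 and from Mcm2 to Gins1 were larger than the SD of at least 1 of the genes. Within single libraries the order was steadier. Pcna lay above every ring subunit in all 6 libraries, Mcm4 above Mcm2 and Mcm2 above Gins1 in all 6, and Cdc45 above Mcm10 in 5, while Mcm6, Mcm5, Mcm7 and Mcm3 changed places. The length used was the union of all annotated exons, which is 6956 bases for Mcm2 and 7692 for Mcm10, so a gene with long rare exons is understated on this scale.

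Over the 6 libraries, Pearson correlations of log2 CPM between the 45 pairs of these genes ran from 0.781 to 0.999 with a median of 0.978. These are descriptions of 6 libraries that share the same 2 low ones. Over the 4 libraries without Xist they ran from -0.442 to 0.997, with a median of 0.855. The 10 other tested genes most like the mean profile of the licensing genes, by Pearson correlation over 6 libraries, had r from 0.9948 to 0.9995. Chaf1a, a subunit of the chromatin assembly factor that works with Pcna, and Uhrf1, which recruits the maintenance DNA methyltransferase behind the fork, were the ones that also belong to the replication lists described next. First in the order were Irgm2 (r = 0.9995) and Gbp6 (r = 0.9984), with Igtp (r = 0.9964) close behind, all GTPases induced by interferon. Irgm2 had 168, 206 and 21.9 CPM in f/f and 143, 31.8 and 168 CPM in Vil-KO. Igtp had 181, 183 and 12.2 CPM in f/f and 132, 24.0 and 176 CPM in Vil-KO. Both were therefore low in the same libraries as the licensing genes, and further below the rest. The others were 9330175E14Rik, B130034C11Rik, N4bp1, Rrs1 and Rbm15. 9330175E14Rik and B130034C11Rik both had 0.162 CPM in f/f replicate 3, which is under 3 counts.

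The other genes of the pathway were followed in 7 lists of 98 genes, of which 97 were tested, all but Chtf8. By the screening criterion 0 of the 97 passed in either direction, against 1.65% of all tested genes as higher in Vil-KO and 1.65% as lower. In edgeR 0 of the 97 had an unadjusted p below 0.05. Both libraries with Xist were the lowest for 67 of the 97 (69.1%) and at least 2-fold lower in both for 35 (36.1%), so the list genes lay between the licensing genes and all tested genes in this respect. The median log2 fold changes of 4 lists turned sign without the libraries with Xist, and each list's median over the 4 libraries without Xist is given beside that over 6.

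The 12 other licensing genes hold the origin recognition complex, the loaders and their inhibitor, with Mcmbp, Mcm8 and Mcm9 beside them. Their median log2 fold change was 0.060 over 6 libraries and -0.048 over 4. Their median departure was -0.38 in f/f replicate 3 and -0.12 in Vil-KO replicate 2, the least of any list, and 2 of 12 were at least 2-fold lower in both. Cdc6, the ATPase that loads the ring, had 14.3, 14.9 and 2.99 CPM in f/f and 18.4, 1.89 and 15 CPM in Vil-KO, lower in the same libraries than any of the 10 genes relative to the others. Gmnn, the inhibitor of Cdt1, had 22.4, 24.2 and 20.4 CPM in f/f and 19.7, 20.3 and 21.7 CPM in Vil-KO, almost the same in all 6. Cdc6 and Gmnn were chosen after their values were seen. The lowest p in this list belonged to Mcm9, a helicase of DNA repair (log2 fold change -0.31), and to Orc2, a subunit of the recognition complex (0.28), both with an adjusted p = 0.992 in edgeR.

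The 14 genes of origin firing and the fork were nearest to the licensing genes, with a median departure of -1.52 in f/f replicate 3 and -1.14 in Vil-KO replicate 2, and 8 of 14 at least 2-fold lower in both. Their median log2 fold change was 0.086 (0.018 over 4 libraries), and the lowest p were those of Dbf4, the activator of the Cdc7 kinase (0.35, adjusted p = 0.992 in edgeR), and Gins3 (-0.42, adjusted p = 0.996). Among the 12 replicative polymerase genes the departures were -1.17 and -0.70, with 6 of 12 lower in both and a median log2 fold change of 0.039 (-0.0051 over 4 libraries), and the lowest p were those of Pole4 (-0.18) and Pold3 (0.21), with an adjusted p of 0.992 for both in edgeR. The 14 tested genes of clamp loading and Okazaki fragment joining, the partners of Pcna, had departures of -0.98 and -0.63, with 5 lower in both and a median log2 fold change of 0.085 (-0.048 over 4 libraries). There the lowest p belonged to Rpa3, a subunit of the single-strand binding protein (-0.38), and Rfc2, of the clamp loader (-0.30), both with an adjusted p = 0.992 in edgeR.

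The 11 genes of nucleotide supply and chromatin assembly had departures of -1.41 and -0.77, with 4 lower in both and a median log2 fold change of 0.12 (-0.0075 over 4 libraries). Rrm2, the small subunit of ribonucleotide reductase, chosen after its values were seen, had 44.8, 45.4 and 9.05 CPM in f/f and 42.5, 52.0 and 48.0 CPM in Vil-KO. It was low in f/f replicate 3 alone, unlike the licensing genes. Tk1, thymidine kinase, was among the genes with the lowest p (0.50, adjusted p = 0.992 in edgeR). The 22 genes of E2F and G1/S control had departures of -0.69 and -0.63, with 5 lower in both and a median log2 fold change of 0.056 (0.026 over 4 libraries), and the lowest p were those of Cdk6 (-0.48) and cyclin E2, Ccne2 (-0.74), both with an adjusted p = 0.992 in edgeR.

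The 12 genes of G2 and mitosis had a median log2 fold change of 0.39 over 6 libraries and 0.20 over the 4 without Xist. The medians over all tested genes were 0.0012 and -0.0003. All 12 estimates lay above 0 in both, though 0 of 12 had an unadjusted p below 0.05 by edgeR with 6 libraries. Both libraries with Xist were the lowest for 11 of the 12, so these genes vary together and their signs are not separate results. The lowest p were those of Ccnb2 (0.51) and Cdc20 (0.52), both with an adjusted p = 0.992 in edgeR. Mki67, the gene of the proliferation marker Ki67, had 279, 288 and 70.3 CPM in f/f and 280.0, 114 and 412 CPM in Vil-KO. Top2a, the topoisomerase that separates sister chromatids, had 177, 164 and 24.2 CPM in f/f and 181, 54.7 and 243 CPM in Vil-KO. For both the genotypes overlapped, and Vil-KO replicate 3 was the highest library, which it was not for the ring subunits other than Mcm7. In f/f replicate 3 this list departed by -2.06, further than the licensing genes, and in Vil-KO replicate 2 by -0.88, less far.

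**Figure D4:**
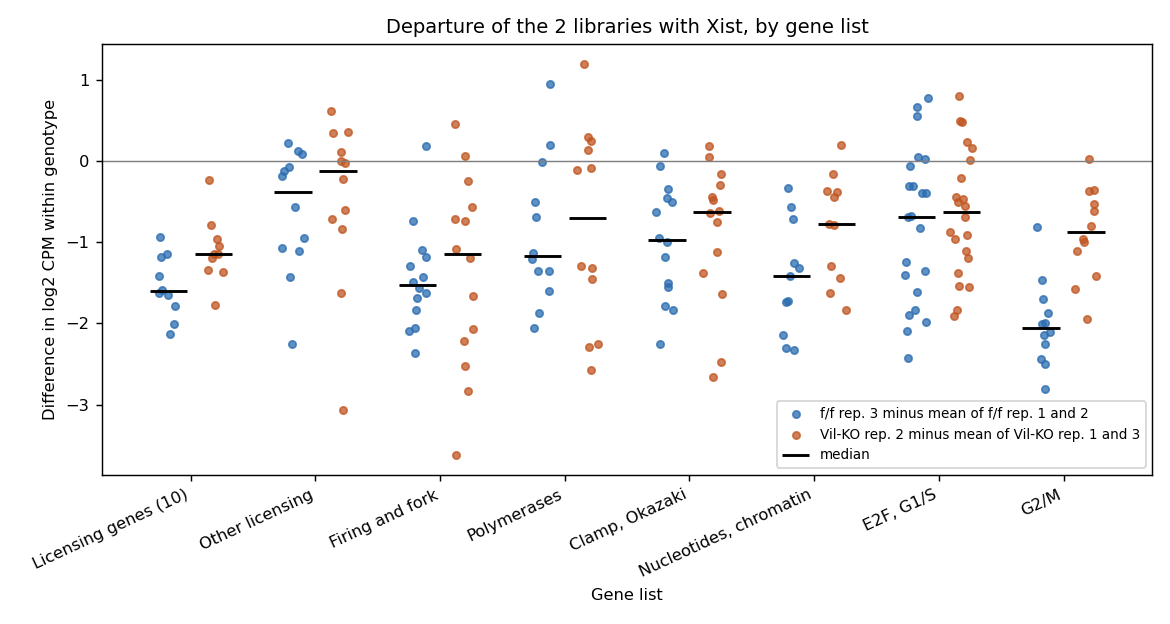
Difference in log2 CPM between each library with Xist and the mean of the other 2 libraries of its genotype, with 1 point per gene and a bar at the median, for the 10 licensing genes and 7 lists of other replication and cell cycle genes. The 10 licensing genes all lie below 0, with medians of -1.6 (f/f replicate 3) and -1.15 (Vil-KO replicate 2). The genes of origin firing and the fork have medians of -1.52 and -1.14, and the other licensing genes lie around -0.38 and -0.12.

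In the 4 libraries without Xist, 6 of the 97 list genes passed the screening criterion (6.19%, against 11.0% of all tested genes). Chtf18 (0.51), E2f2 (0.35) and Ccnd1 (0.62) were higher in Vil-KO on the log2 scale, and cyclin D2, Ccnd2 (-0.71), Cdk6 (-0.64) and Ccne2 (-0.75) were lower. These are unadjusted calls from 2 against 2, and the genes are named here for passing them. Of the 6, 5 belong to the list of E2F and G1/S control, the largest list, which held 22 of the 97 genes.

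Markers of cell types moved with the same libraries in part. Summed markers of the crypt base, among them Lgr5, were 428, 399 and 214 CPM in f/f and 420.0, 107 and 400.0 CPM in Vil-KO, lowest in the libraries in which the licensing genes were lowest, as were 5 of the 6 markers one by one. Markers of mature colonocytes were 2400, 2520 and 6200 CPM in f/f and 3110, 1800 and 3120 CPM in Vil-KO, highest in the one low library and lowest in the other. Goblet cell markers were 12800, 11600 and 11300 CPM in f/f and 9500, 6440 and 9390 CPM in Vil-KO, a sum lower in all 3 Vil-KO libraries than in any f/f library. One by one this held for Clca1 only, while the genotypes overlapped for Muc2, Fcgbp, Tff3, Agr2 and Spdef. Among all tested genes 9.9% had genotypes that did not overlap. Myeloid markers were 744, 124 and 14.0 CPM in f/f and 149, 990.0 and 50.7 CPM in Vil-KO, and stromal markers 219, 51.0 and 7.03 CPM in f/f and 60.5, 6.66 and 14.6 CPM in Vil-KO. Of the 7 myeloid markers 4 were lowest in both libraries with Xist, as were 4 of 6 stromal ones, while S100a8 and S100a9 made up most of the sum in Vil-KO replicate 2. There S100a8 had 574 CPM and S100a9 405 CPM, beside 0.666 CPM for Csf3r, 2.0 CPM for Itgam and 5.49 CPM for Lyz2. B cell markers summed to between 1.61 and 16.1 CPM and T cell markers to between 6.46 and 14.1 CPM. Plasma cell markers summed to 566, 546 and 479 CPM in f/f and 616, 1040.0 and 692 CPM in Vil-KO, higher in all 3 Vil-KO libraries. Most of that sum was Xbp1 and Sdc1, and for each of them alone the genotypes overlapped. Jchain did not follow the sum, with 10.7, 31.2 and 1.7 CPM in f/f and 42.5, 4.88 and 17.0 CPM in Vil-KO. Of the immune markers, Cd4, Adgre1, Mzb1 and Tnfrsf17 were among those at 0 in at least 1 library. The part of Xist, of the mitochondrial share and of these cell markers in the low values of the licensing genes was not tested.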

How the data were processed

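The authors deposited one table of raw read counts, 1 row per Ensembl gene and 1 column for each of the 6 libraries, not normalised. Per the methods and the submitters' processing notes, polyA RNA was sequenced in paired ends and aligned to GRCm38 (mm10) with HISAT2. How reads were counted, and whether strand was used, is not given in the sources used here. The kit for library preparation in the labels is not the one in the methods. Counts, between 15439123 and 20350539 per library, were fitted with edgeR 4.0.16 in R 4.3.3 (filterByExpr, TMM, robust quasi-likelihood test of genotype without covariates, Benjamini-Hochberg adjustment over 14650 genes). The study's FPKM comparison was not remade, since only counts were used. DESeq2 1.42.0, limma-voom 3.58.1 with quality weights, other scalings and filters, leaving out each library, the replicate block, a term for Xist and the 4 libraries without Xist were tried as alternatives. CPM are TMM scaled. Correlations and departures of a library used log2 CPM with a prior count of 2. Lengths and coordinates came from GENCODE vM21, which held 99.38% of the listed genes, and promoters from RefSeq.

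The 10 genes, the 7 lists and the tests were chosen with earlier results of these data known. Named were all 10 genes, Nsd2, Mki67, Top2a, the 2 genes of each list with the lowest p, any list gene past the screening criterion, and the 10 genes with the most similar profile. Some genes that this rule names are not reported here. The code was tested on simulated data. Replicates differed by more than sampling noise, so none was counted as a duplicate. Figures were drawn with matplotlib 3.10.9. The authors' ChIP-seq was not used here.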

Additional observations from a re-analysis of the deposited data

How the results depend on the processing

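In all 16 alternatives 0 of the 10 licensing genes passed the screening criterion or an adjusted p below 0.05. Their log2 fold changes are near 0, so the sign turned for 13 of 100 estimates that kept all libraries or left out both with Xist: to 0.012 for Mcm2 with library sizes only, to 0.084 (Mcm2), 0.068 (Mcm4), 0.0047 (Mcm5), 0.039 (Mcm6), -0.030 (Mcm7) and 0.022 (Pcna) with a term for Xist, and to -0.012 (Mcm10) in the 4 libraries without Xist. With the replicate block it turned to 0.081 (Mcm2), 0.049 (Mcm4), 0.023 (Mcm6), -0.025 (Mcm7) and 0.026 (Pcna), and the block's median was 0.0094. The labels do not say whether the replicate numbers pair the samples. Deviations of same-numbered libraries from their genotype means correlated at 0.322, -0.35 and -0.108. The outlying library of each genotype enters these means, so the values cannot decide the pairing. Leaving out 1 library moved the median of the 10 genes between -0.42 (without f/f replicate 3) and 0.23 (without Vil-KO replicate 2), turning 28 of 60 estimates. The single ranges were -0.34 to 0.28 (Mcm2), -0.47 to 0.25 (Mcm3), -0.42 to 0.28 (Mcm4), -0.50 to 0.32 (Mcm5), -0.42 to 0.22 (Mcm6), -0.28 to 0.34 (Mcm7), -0.44 to 0.25 (Cdc45), -0.46 to 0.083 (Gins1), -0.31 to 0.41 (Mcm10) and -0.28 to 0.21 (Pcna), the low end always without f/f replicate 3. The number of all tested genes past the criterion, 482, became 861 without a filter on low counts, 1440 in limma-voom, 303 with the block, 1145 with the term for Xist, 1646 in the 4 libraries without Xist and 323 (without f/f replicate 2) to 769 (without Vil-KO replicate 2) when 1 library was left out. The cause of these moves was not tested. What 3 libraries a genotype could show differed between the genes, with 95% intervals from -0.70 to 0.63 for Pcna and from -1.59 to 1.44 for Mcm5.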
